A study of Equus caballus with 10 samples.

Results

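Scleraxis (SCX), Mohawk (MKX), EGR1, EGR2, SIX2, MEOX2, GTF2IRD1 and NFATC4, which are 8 transcription factors linked to tendon cells, and tenomodulin (TNMD), a membrane protein used as a tendon marker, were followed in equine tenocytes cultured in 3D. The members were taken by gene name, and all 9 were found among the 29196 genes of the deposited table. Tenocytes from the superficial digital flexor tendon of 5 adult Thoroughbred or Thoroughbred-type horses were expanded in culture and then kept in collagen gels for 14 days. In 1 group the only addition was PF-06650833 (PF), an inhibitor of the IL-1 receptor signalling kinase IRAK-4, given daily at 100 nM. The other group, IL-1β + PF, received the same daily PF together with IL-1β, at 17 ng/ml every 3 to 4 days. Each donor gave 1 library to each group, so there were 5 libraries per group, and both groups carried the inhibitor. The comparison asks how these genes responded to IL-1β while IRAK-4 was inhibited.

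Tendon cells are fibroblasts that build and maintain a matrix rich in type I collagen. SCX is a basic helix-loop-helix factor that marks tendon progenitors and binds DNA as a dimer with E proteins, while MKX is a homeobox factor needed for the growth of collagen fibrils in tendon. EGR1 and EGR2 are zinc finger factors that are induced rapidly by mechanical and growth factor signals and activate collagen genes, and TNMD is known as a late marker that depends on SCX and MKX. NFATC4 belongs to the factors that calcineurin activates, SIX2 and MEOX2 are homeobox factors of limb and muscle connective tissue, and GTF2IRD1 belongs to the TFII-I family and has been linked to the response of tendon cells to loading.

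Values are variance-stabilized log2 expression, on which a gene with 0 reads stands at 3.433, and normalised counts are the same values transformed back to a linear scale. Between 26672336 and 36093461 reads per library were estimated from the spacing of the lowest values. A gene was called differentially expressed at an adjusted p below 0.05 from limma with a log2 fold change (log2FC) of 1 or more in either direction. By this rule 6.68% of the 17992 tested genes were called, 3.57% lower and 3.11% higher with IL-1β + PF.

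Of the 9 genes, 8 had enough reads to be tested, and 2 of these 8, SCX and MKX, were lower with IL-1β + PF by the rule above. None of the 8 was called higher, by limma, while 5 of the 8 had an unadjusted p below 0.05, as had 29.7% of all tested genes. SCX and MKX were also the only members whose groups did not overlap, which 6.41% of all tested genes showed in that direction. The mean was lower with IL-1β + PF for 6 members and higher for 2, and the median log2FC of the 8 was -0.65, beside -0.0063 over all tested genes.

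**Figure D1:**
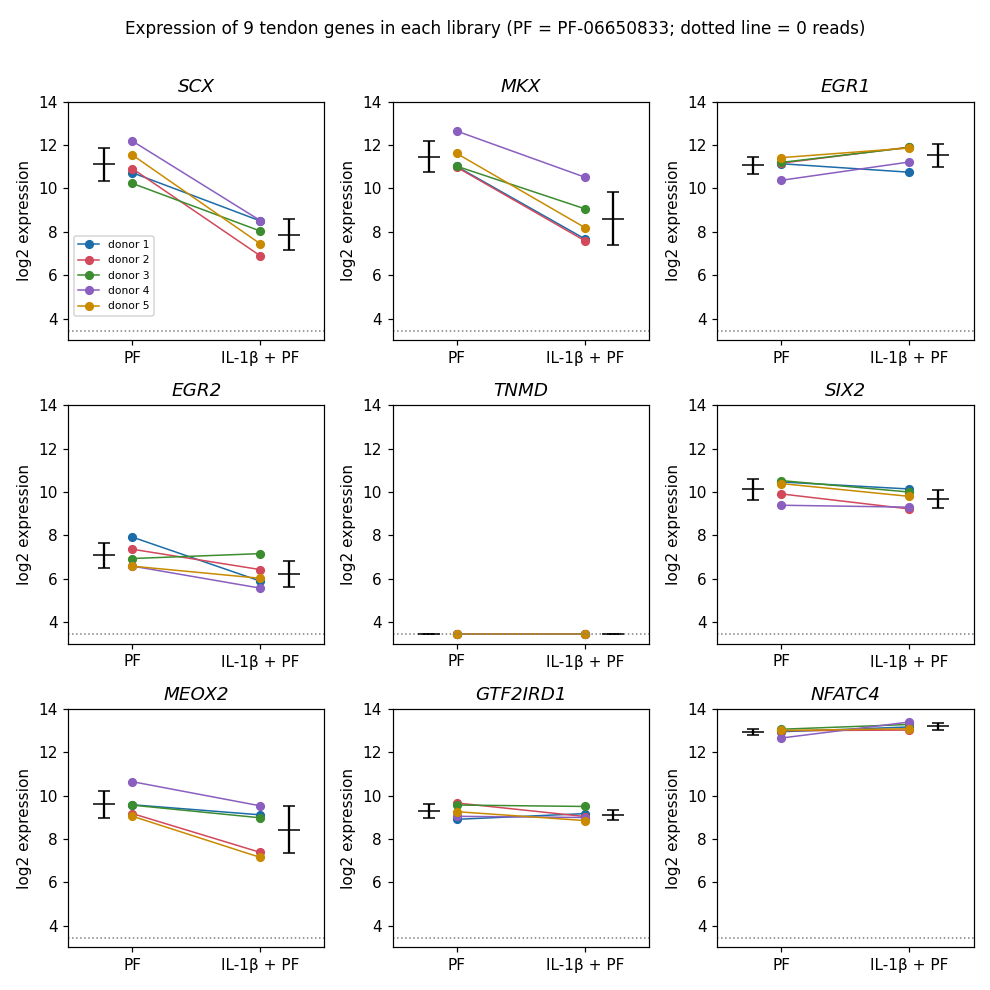
Log2 expression (vertical axes) of the 9 genes in each library, with lines joining the PF-06650833 alone (PF) and IL-1β plus PF-06650833 (IL-1β + PF) libraries of a donor and black bars giving the mean ± SD of 5 libraries. All 5 lines fall for SCX and MKX with no overlap between the groups, and TNMD lies on the dotted line at 3.433 in every library.

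SCX, the factor of tendon progenitors, fell in all 5 donors. With PF alone its log2 expression was 10.72, 10.91, 10.23, 12.18 and 11.54 in donors 1 to 5. With IL-1β + PF it was 8.50, 6.88, 8.03, 8.51 and 7.44. The highest library with IL-1β + PF, that of donor 4, was thus below the lowest with PF alone, that of donor 3. The mean went from 11.12 ± 0.76 (SD, n = 5) to 7.87 ± 0.70 (SD, n = 5), a log2FC of -3.24 (SE 0.40, limma adjusted p = 6.1e-04). An exact two-sided permutation test of the 10 libraries gave p = 0.0079, the smallest that 5 against 5 allows. With the 2 libraries of each donor paired, an exact sign-flip test gave p = 0.0625 for SCX and likewise for MKX, the smallest that 5 pairs allow. In normalised counts the mean was 2465 with PF alone and 235 with IL-1β + PF, a 10.5-fold difference. The decrease was not equal among donors, at 4.90-fold and 4.91-fold in donors 1 and 3 and between 13.5-fold and 19.5-fold in the other three. Among all 17992 tested genes SCX ranked 41 from the largest decrease.

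The libraries are from bulk cultures, so fewer cells that express a gene cannot be told apart from less RNA per cell.

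MKX, the homeobox factor of fibril growth, fell in all 5 donors as well. Its log2 expression with PF alone was 11.01, 10.97, 11.02, 12.64 and 11.61 in donors 1 to 5. With IL-1β + PF the values were 7.67, 7.58, 9.06, 10.51 and 8.19. Donor 4 was highest in both groups, and its library with IL-1β + PF was still below the lowest library with PF alone, that of donor 2. The mean changed from 11.45 ± 0.72 (SD, n = 5) to 8.60 ± 1.22 (SD, n = 5), a log2FC of -2.85 (SE 0.54, limma adjusted p = 0.0055). The exact permutation test gave p = 0.0079, again the smallest possible. Normalised counts averaged 3107 with PF alone and 515 with IL-1β + PF, which is 6.03-fold lower. Donors 1, 2 and 5 showed decreases between 11.2-fold and 11.6-fold, and donors 3 and 4 of 4.02-fold and 4.41-fold. MKX ranked 60 from the largest decrease of all tested genes.

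**Figure D2:**
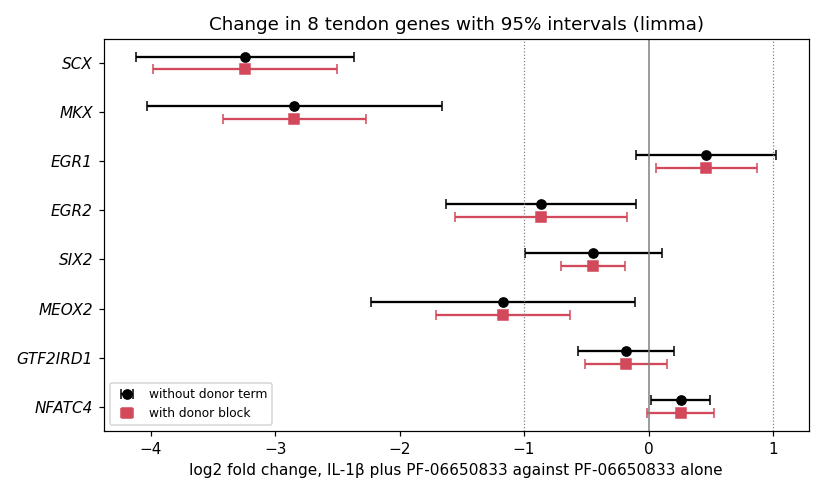
Log2 fold change (horizontal axis) of the 8 tested genes between IL-1β plus PF-06650833 and PF-06650833 alone, with 95% intervals from limma without a donor term (black circles) and with the donor as a block (red squares); dotted lines mark a log2FC of 1 in either direction. The intervals of SCX and MKX lie wholly below -1, and that of MEOX2 narrows from between -2.23 and -0.11 to between -1.71 and -0.63 with the block.

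MEOX2, a homeobox factor of developing muscle and its connective tissue, was lower with IL-1β + PF in every donor, but its call depended on whether the donor was part of the fit. Log2 expression was 9.58, 9.17, 9.56, 10.64 and 9.05 in donors 1 to 5 with PF alone, and 9.11, 7.38, 8.97, 9.52 and 7.15 with IL-1β + PF. The groups overlapped and the donors differed widely, with donor 4 highest and donor 5 lowest in both. From means of 9.60 ± 0.63 (SD, n = 5) and 8.43 ± 1.09 (SD, n = 5) the log2FC was -1.17 (SE 0.48, limma adjusted p = 0.129). With the donor as a block MEOX2 was called lower, with a standard error of 0.23 and an adjusted p of 0.0111 from limma. Under the block 3 of the 8 members were called, all lower, beside 8.26% of all tested genes in both directions and 4.25% lower. Leaving out donor 5 from the blocked fit moved MEOX2 to -0.99 (limma adjusted p = 0.0291), just short of the minimum fold change, so that it was no longer called. The exact permutation test without pairing gave p = 0.0635. Paired by donor, the exact sign-flip test gave p = 0.0625, the smallest that 5 pairs allow.

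SIX2, a homeobox factor of limb tendon and connective tissue, was lower in all 5 donors by a small amount. Its log2 expression was 10.46, 9.91, 10.52, 9.39 and 10.39 with PF alone and 10.14, 9.22, 10.00, 9.30 and 9.79 with IL-1β + PF. The groups overlapped, and the range among donors, 1.14 with PF alone and 0.92 with IL-1β + PF, was larger than the difference between groups. The log2FC was -0.44 (95% interval -0.996 to 0.11, limma adjusted p = 0.266), and the exact permutation test without pairing gave p = 0.167. The exact sign-flip test paired by donor gave p = 0.0625, the smallest that 5 pairs allow. With the donor as a block the limma adjusted p was 0.0255, so that without a minimum fold change 4 of the 8 members would pass, beside 22.2% of all tested genes. SCX, MKX, MEOX2 and SIX2 were the 4 members lower in all donors, a pattern that 16.8% of all tested genes showed.

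The 2 early growth response factors had differences of opposite sign, and neither passed the test. For EGR1 log2 expression was 11.13, 11.16, 11.19, 10.37 and 11.42 in donors 1 to 5 with PF alone and 10.74, 11.90, 11.88, 11.22 and 11.86 with IL-1β + PF. It was higher with IL-1β + PF in 4 donors and lower in donor 1. The log2FC was 0.47 (95% interval -0.10 to 1.03, limma adjusted p = 0.254), and 0.29 without the PF alone library of donor 4, the lowest of its group. With the donor as a block the 95% interval was 0.06 to 0.87 (limma adjusted p = 0.097). Without donor 1 the log2FC of EGR1 was 0.68, with a limma adjusted p of 0.133, or 0.0136 with the block, below the minimum fold change. EGR2 stood at 7.92, 7.36, 6.93, 6.58 and 6.58 with PF alone and at 5.89, 6.42, 7.16, 5.57 and 6.02 with IL-1β + PF. Donor 3 was the exception to lower values with IL-1β + PF, and the groups overlapped. The log2FC of EGR2 was -0.86 (95% interval -1.63 to -0.10, limma adjusted p = 0.122). Without the library of donor 3 with IL-1β + PF it became -1.10 with an adjusted p of 0.0384 from limma, and EGR2 was then called. Without donor 1 it was -0.57 (limma adjusted p = 0.397). EGR2 rested on between 20 and 194 estimated reads per library, the lowest depth of the tested members.

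NFATC4, a calcineurin-dependent factor, was higher with IL-1β + PF in all 5 donors, as were 16% of all tested genes. The mean was 12.93 ± 0.16 (SD, n = 5) with PF alone and 13.19 ± 0.15 (SD, n = 5) with IL-1β + PF. Within donors the difference ran from 0.03 in donor 2 to 0.74 in donor 4, and the libraries of the groups overlapped. The log2FC was 0.26 (95% interval 0.02 to 0.49, limma adjusted p = 0.133, exact permutation p = 0.0159 unadjusted and without pairing). Paired by donor, the exact sign-flip p was 0.0625, again the smallest possible, and the 95% interval with the donor as a block was -0.015 to 0.53. Without donor 4 the log2FC of NFATC4 was 0.14. GTF2IRD1 lay between 8.90 and 9.66 with PF alone and between 8.85 and 9.50 with IL-1β + PF. Its log2FC was -0.18 (95% interval -0.56 to 0.21, limma adjusted p = 0.550), so a change by 1 on the log2 scale lies outside the interval in either direction. Leaving out a library or donor moved GTF2IRD1 to between -0.29, without donor 1, and -0.067, without donor 2. Among single libraries it was -0.085 without that of donor 2 with PF alone and -0.28 without that of donor 3 with IL-1β + PF.

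TNMD was listed at the value of 0 reads in all 10 libraries, as were 7898 genes of the table. A count of 0 allows up to 3 reads in a library, which is a normalised count of 3.12 to 4.22 at these depths, for counting error only. No fold change can be given, and a decrease of TNMD by IL-1β could not have been detected. The labelled tendon cells therefore expressed SCX and MKX but had no detected TNMD in either group. Its closest relative chondromodulin (CNMD) was near the value of 0 reads too, at 3.80 ± 0.38 (SD, n = 5) with PF alone and 3.80 ± 0.52 (SD, n = 5) with IL-1β + PF.

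The members divided by what their values varied with. The 10 values of each gene were split into parts for group, donor and the rest, as a description. Group took 86.0% of the variance of SCX and 71.7% of that of MKX. Donor took the largest part for SIX2 (71.0%), GTF2IRD1 (57.4%), MEOX2 (55.6%) and EGR1 (53.9%). For EGR2 the group, donor and remaining parts were 40.0%, 31.3% and 28.6%. NFATC4 had 46.4% with group and 9.20% with donor. Donor 4 had the highest SCX, MKX and MEOX2 in both groups and the lowest SIX2, EGR1 and NFATC4 with PF alone.

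**Figure D3:**
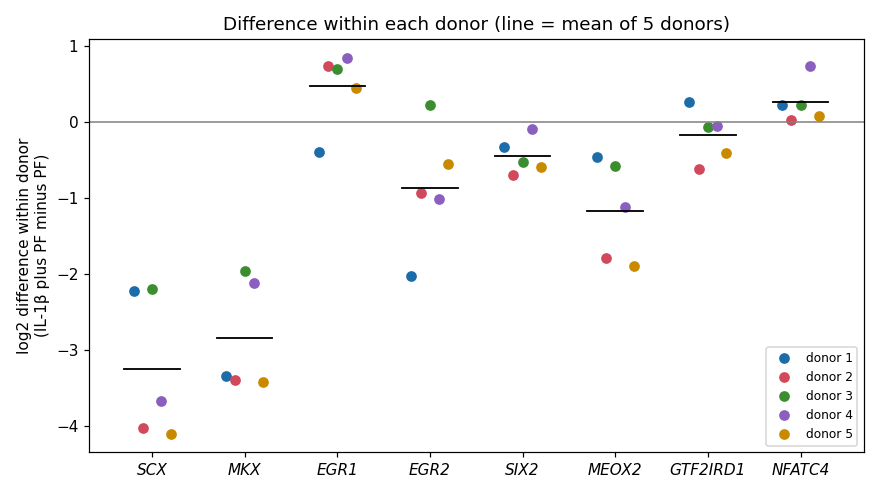
Log2 difference between the IL-1β plus PF-06650833 and the PF-06650833 alone library of each donor (vertical axis, points coloured by donor) for the 8 tested genes, with black lines at the mean of 5 donors. SCX differences range from -4.10 to -2.20 and those of MKX from -3.42 to -1.96, whereas EGR1, EGR2 and GTF2IRD1 have donors on both sides of 0.

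The tested genes most like SCX were LURAP1L, RUNX1T1 and SOX6, measured as the root-mean-square difference between values centred on each gene's mean over the 10 libraries (0.40, 0.42 and 0.42 on the log2 scale). Their log2FCs were -3.22, -3.74 and -3.64. For MKX they were COL12A1, CDH1 and LAMA3, at 0.41, 0.44 and 0.45. COL12A1, a fibril-associated collagen, went from 16.56 ± 0.56 (SD, n = 5) to 13.82 ± 1.17 (SD, n = 5). Likeness here includes the difference between the groups as well as the order of the donors.

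Genes around these factors were grouped by role. The E proteins with which SCX forms dimers showed no call, with TCF3 at a log2FC of -0.21, TCF4 at 0.39 and TCF12 at -0.33. Of the 10 genes of that list, 1 was called, ID3, an inhibitor that binds E proteins and keeps them from DNA. ID3 rose from 14.39 ± 0.39 (SD, n = 5) to 15.47 ± 0.20 (SD, n = 5), a log2FC of 1.08 (limma adjusted p = 0.0044). Without the PF alone library of donor 4 it was 0.92, and without both libraries of that donor 0.98, so that ID3 and with it the list had no call. In other fits without 1 library or donor up to 2 genes of the list were called. Its relatives, looked at after the values had been seen, had log2FCs of 0.99 for ID1, 0.64 for ID2 and 0.65 for ID4, with adjusted p-values from limma of 8.8e-04, 0.0308 and 0.0417, below the minimum fold change. ID1, ID2, ID3 and ID4 were higher with IL-1β + PF in all 5 donors.

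Among 18 tested relatives of the member families, 3 were called, all lower. Among them SIX4, a homeobox factor of the same family as SIX2, fell from 11.42 ± 0.12 (SD, n = 5) to 10.23 ± 0.61 (SD, n = 5), a log2FC of -1.18 (limma adjusted p = 0.0089, 0.0534 without donor 2). SIX2 itself, as given above, did not pass. IRX3, an Iroquois homeobox factor of the same TALE class as MKX, had a log2FC of -1.10 (limma adjusted p = 0.0283). IRX3 was not called when a single library, that of donor 2, 4 or 5 with PF alone or of donor 1, 3 or 4 with IL-1β + PF, was left out, nor without donor 1, 4 or 5, where its log2FC was -1.12 to -0.85. EYA1, a coactivator recruited by SIX2 and its relatives, was the 1 called gene of 5 tested EYA and DACH genes and rose by a log2FC of 1.75 (limma adjusted p = 0.0064). Of these 5 genes only EYA2 had a lower mean with IL-1β + PF, and it was lower in all 5 donors. Its log2FC was -0.75 (limma adjusted p = 0.0568, and 0.0044 with the donor as a block). EYA2 stood at 11.11 with PF alone and EYA1 at 6.65. Of 9 genes of the calcineurin pathway, 1 was called, the calcineurin inhibitor RCAN2, with a log2FC of -1.17 (limma adjusted p = 0.0221). RCAN2 lost its call when a single library, that of donor 1 or 5 with PF alone or of donor 2 or 5 with IL-1β + PF, was left out, and without donor 2 or 5, at log2FCs of -1.16 to -0.96 and adjusted p-values from limma of 0.0431 to 0.106. These fits had no donor term. With all donors and the donor as a block, SIX4, IRX3 and RCAN2 were called (limma adjusted p = 0.0036, 0.0075 and 0.0056). Among the family relatives the block also gave 3 calls without donor 1, 2 or 3.

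In the list of 27 tested tendon matrix genes, 9 were called and all 9 were lower, with a median log2FC of -1.10 over the list. With no donor term, 4 were called without donor 5, 6 without donor 1 or 2, and 13 without donor 4. With the donor as a block, 12 were called with all donors, 9 without donor 1 and 12 without donor 2. Without donor 3 the block gave 14, of which 1 was higher. Part of this list had shown decreases in earlier results of these libraries, so its direction is not independent evidence. The smallest adjusted p-values were those of COL11A1 (log2FC -3.46), which starts fibril assembly, THBS2 (-3.53), COL12A1 (-2.74) and the small proteoglycan ASPN (-5.94), between 0.0034 and 0.0048 from limma. The type I collagen genes, which SCX and EGR1 are known to activate and which were picked out after the values had been seen, had log2FCs of -1.38 for COL1A1 and -1.28 for COL1A2, lower in all 5 donors. Their adjusted p-values from limma were 0.0682 and 0.0614, and 0.0147 and 0.0169 with the donor as a block, where both were called. Not every matrix gene was lower, since DCN had a log2FC of 1.01 (limma adjusted p = 0.268) and LUM of 0.33 (adjusted p = 0.693).

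Of 17 tested genes of TGF-β and GDF signalling, 2 were called, both lower: LTBP2, a latent TGF-β binding family protein of elastic fibres (log2FC -2.26, limma adjusted p = 0.0131), and GDF6, a ligand with a role in joint and tendon formation (-1.38, limma adjusted p = 0.0298). LTBP2 was not called without donor 2 or 5 (limma adjusted p = 0.0774 and 0.0701). GDF6 was not called when the library of donor 4 or 5 with PF alone or of donor 1, 2 or 5 with IL-1β + PF was left out, nor without donor 1, 2, 4 or 5, at log2FCs of -1.45 to -1.09 and adjusted p-values of 0.0531 to 0.103. The ligand TGFB3 had a log2FC of -0.96 (limma adjusted p = 0.164). Of 10 tested genes of FGF signalling, the receptor FGFR2 fell by a log2FC of 2.39 (limma adjusted p = 0.0082) and the ERK-responsive factor ETV4 rose by 1.03 (limma adjusted p = 0.0102). The adjusted p of FGFR2 was 0.0548 without donor 1 and 0.0516 without donor 2. ETV4 fell short of the call, at 0.91 to 0.99, without the library of donor 4 or 5 with PF alone or of donor 2, 3 or 5 with IL-1β + PF, and without donor 5, and it stood at 0.995 under quantile normalisation. These fits of LTBP2, GDF6, FGFR2 and ETV4 had no donor term. With all donors and the donor as a block, the 4 genes were called (limma adjusted p = 0.0061, 0.0095, 0.0108 and 0.0013). The block also gave 2 calls in the TGF-β and GDF list without donor 1, 2 or 3. Of 16 co-repressors of EGR proteins and genes of the serum response, 3 were called, all higher. These were the early response gene IER3 (log2FC 4.06, limma adjusted p = 1.2e-04), NAB1, which binds and represses EGR1 and EGR2 (1.33, adjusted p = 1.5e-04), and the AP-1 gene FOSL1 (1.40, adjusted p = 0.0012). The median log2FC of this list was 0.014. The co-repressor NAB2 was lower in all 5 donors, with a log2FC of -0.26 (limma adjusted p = 0.361, and 0.0448 with the donor as a block).

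**Figure D4:**
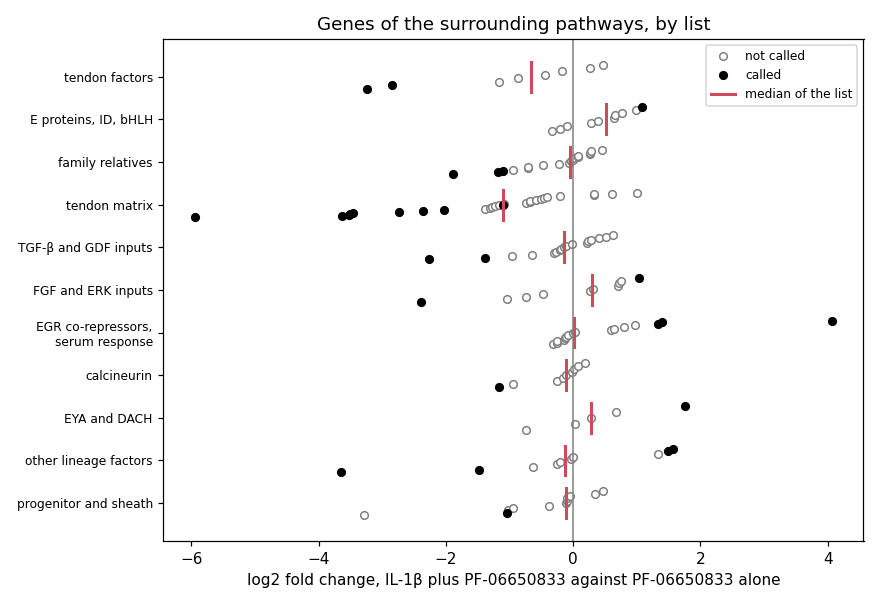
Log2 fold change (horizontal axis) of each tested gene in the tendon factors and 10 lists of surrounding genes (rows), with filled points for genes called by limma, open points for the others and a red line at the median of each list. The called genes of the tendon matrix list all lie on the lower side, at a list median of -1.10, and those of the EGR co-repressors and serum response on the higher side.

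Over the 10 lists the share of tested genes called was between 9.09% and 40%, beside 6.68% of all tested genes. Apart from the tendon matrix list, the list medians lay between -0.14 for TGF-β and GDF signalling and 0.51 for the E proteins, ID genes and their relatives, and a list chosen with earlier results known is described here without a test.

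Factors of other lineages moved in both directions, with 4 of 10 tested genes called. SOX6 (log2FC -3.64) and SOX9 (-1.49), factors of cartilage formation, were lower, with adjusted p-values from limma of 9.8e-05 and 7.5e-04. SOX5 (1.58), also a factor of cartilage formation, was higher (limma adjusted p = 0.0123), so these SOX genes did not share a direction. CEBPB (1.495), a factor of fat and inflammatory gene expression, was higher too (limma adjusted p = 1.9e-04). SOX5 was not called without donor 1, 2 or 5 (limma adjusted p of 0.0598 to 0.0742), in fits with no donor term. With all donors and the donor as a block SOX5 was called (limma adjusted p = 0.0078). The muscle factors MYOD1, MYOG and PAX7 were at the value of 0 reads in all libraries. Among 11 tested markers of tendon progenitors and the tendon sheath, KLF4 was called (log2FC -1.05, limma adjusted p = 0.0049), and 3 genes were called with the donor as a block. KLF4 fell short of the minimum fold change, at -0.98 to -0.90, without the library of donor 3 or 4 with PF alone or of donor 1 with IL-1β + PF, without donor 1, 3 or 4, and with libraries weighted by their quality. In fits with no donor term, no gene of this list was called without the IL-1β + PF library of donor 1, without donor 1 or without donor 4. With the donor as a block, 1 gene was called without donor 1. PRG4 had the lowest log2FC of the list, -3.28, and was lower in all 5 donors. Its limma adjusted p was 0.0590, and 0.0095 with the donor as a block, where it was called. TPPP3 (-0.11) and PDGFRA (0.46) were not called.

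Markers of other cell types were read in the same libraries. Fibroblast markers were high throughout, with VIM at 17.64 ± 0.16 (SD, n = 5) and 17.20 ± 0.19 (SD, n = 5). By limma 0 of the 8 tested fibroblast markers were called, 3 had an unadjusted p below 0.05 (29.7% of all tested genes), and 3 were called lower with the donor as a block. Of 5 markers of mural cells, 3 were called lower together with SCX and MKX, namely CSPG4 (log2FC -1.84), RGS5 (-1.96) and DES (-2.98), of which RGS5 was not called without donor 1, 2 or 5 (limma adjusted p of 0.054 to 0.066). With all donors and the donor as a block RGS5 was called (limma adjusted p = 0.0123). The summed normalised counts of the 5 mural markers ran from 3703 to 36801 with PF alone and from 4238 to 13102 with IL-1β + PF, and none was at 0 in all libraries. Their part in the decrease of SCX and MKX was not tested. Of the leukocyte markers PTPRC had reads in 1 library, CD3E and AIF1 in none, and CD68 rose by a log2FC of 1.70 (limma adjusted p = 0.0080, 0.0527 without donor 5). CD68 was also called with all donors and the donor as a block (limma adjusted p = 0.0050). The summed normalised counts of the 8 leukocyte markers were 61.3 to 1768 with PF alone and 171 to 1944 with IL-1β + PF. CD14 varied most among the tested ones, at 5.88 ± 3.45 (SD, n = 5) with PF alone and 8.54 ± 2.95 (SD, n = 5) with IL-1β + PF. Its log2FC of 2.66 was not called (limma adjusted p = 0.340). By limma 0 of 5 tested endothelial, 3 cartilage, 2 skeletal muscle and 1 Schwann cell markers were called, while 2, 2, 1 and 0 of them had an unadjusted p below 0.05. The muscle marker ACTA1, lower in 5 of 5 donors at a log2FC of -3.14 (limma adjusted p = 0.0532), was called with the donor as a block (adjusted p = 0.0157). The markers COL9A1 (cartilage), MYH2 and MYOG (muscle) and LEP (fat) were at the value of 0 reads in all libraries. The sums reached at most 50.4 for 7 endothelial, 110 for 7 cartilage and 12.8 for 4 Schwann cell markers in any library. For 7 skeletal muscle markers they were 8.50 to 1168 with PF alone and 14.8 to 26.4 with IL-1β + PF. For 4 fat cell markers they were 20.3 to 167 and 362 to 2326, with ADIPOQ called higher (log2FC 3.11). The other fat cell markers were low or absent. CIDEC had reads in 2 libraries, and PLIN1 stood at 4.08 with PF alone and 4.41 with IL-1β + PF. PLIN1 was not called (log2FC 0.33, limma adjusted p = 0.384).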

How the data were processed

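RNA from 10 libraries, 5 per group, was analysed. Per the submitters' processing notes and the methods of the study, the authors checked reads with FastQC (version 0.11.9), assigned them to the EquCab3.0 transcriptome with Salmon (version 1.8, with GC-bias correction), imported them with tximport and used DESeq2 (version 1.36). The authors deposited log2 values normalised between libraries. The transformation is not given in the sources used here, and its form was recognised from the lowest value, 3.433, shared by all libraries. Inverting that form gave normalised counts. Reads per library were estimated from the spacing of low values, of which 66.5% to 84.2% lay within 0.15 of a whole read.

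The test was limma (version 3.58.1) in R (version 4.3.3), allowing for a trend of variance with the mean. It covered the 17992 genes with reads in 5 or more of the 10 libraries, used Benjamini-Hochberg adjustment over all of them, and had no donor term, since the study names none. On simulated counts for this comparison, with 17938 genes of which 200 changed by 2 on the log2 scale, limma found 200 and called 0 unchanged genes, and the estimated changes were 0.937 of those simulated. The simulated libraries had the same dispersion for all genes and no donor differences, and only well-counted genes were changed. This checks the fit in an easier setting and does not measure its power or error rate in these libraries, where donors differed. The replicate number stands for the donor named in the labels. After subtracting group means, the 2 libraries of a donor correlated across genes at 0.367 to 0.506 in the 5 pairs, so the donor block was run as an alternative. Library pairs correlated between 0.952 and 0.987 across genes.

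The members and lists were chosen with earlier results of these data known. In each list up to 4 called genes with the smallest adjusted p are named, or up to 2 genes where none is called, and other genes named were chosen after their values were seen. The 3 genes most like SCX and MKX were taken among genes with a symbol. Alternatives were other filters, log2(normalised count + 1) or + 0.5, quantile normalisation, median centring, other variance models, thresholds, and leaving out libraries or donors. The listed genes COL3A1 and GTF2IRD2 were not analysed here. The values of 1 gene that the rule names are not reported here. Sequences and positions are not given.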

Additional observations from a re-analysis of the deposited data

Results flagged for a closer look

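In 2 of 16 groups of 5 libraries, 1 library stood far from the other four, where chance gives about 0.8. Both were the PF alone library of donor 4. EGR1 was at 10.37 there, against 11.13 to 11.42 in the other donors, and NFATC4 was at 12.65, against 12.94 to 13.06. With IL-1β + PF the same donor had EGR1 at 11.22, within the range of its group, and the highest NFATC4, at 13.39.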

How the results depend on the processing

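SCX and MKX kept their direction and their call under all 24 alternatives, and no member changed direction. Their log2 fold changes ranged from -3.51 to -2.98 and from -3.33 to -2.55, with adjusted p-values from limma of at most 0.0072 and 0.0388. MEOX2 was called with the replicate block (-1.17) and with the block on log2(normalised count + 1) (-1.24), and ranged from -1.45 to -0.85 when a library or donor was left out, or from -1.35 to -0.99 with the block (-1.35, -1.02, -1.32, -1.19 and -0.99 without donors 1 to 5). EGR2 ranged from -1.14 to -0.57 in such fits, also with the block. With all libraries the block changed the call of no other member; without donor 3, EGR2 (-1.14) was called with the block (adjusted p = 0.0273) and not without it (0.0549). With the block and no minimum fold change 4 members passed, SIX2 being the fourth, and 3996 of all tested genes and 55 genes of the lists, against 1202 and 27. Without the block and the minimum, 2782 genes passed, and the block on log2(normalised count + 1) gave 1809. Leaving out a library or donor gave 2 to 3 members (2 to 4 with the block) and, without the block, 762 to 1422 genes, with 762, 790 and 777 without donors 1, 2 and 5, and 16 to 33 genes of the lists, with 16 without donor 5. Without donor 3 or 4, which leaves the same number of libraries, 1330 and 1232 genes were called. The cause of these changes was not tested. Depth limits TNMD, at 0 reads, and EGR2 most. The fits with the block that left out a donor or used counts were chosen after seeing the data.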

Other observations

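Several members shared the 2 donors with the lowest differences, a pattern noticed after the values had been seen and not tested. The order of the other donors was not the same among these members. Donors 2 and 5 had the most negative or least positive differences of the 5 donors for SCX, MKX, SIX2, MEOX2, GTF2IRD1 and NFATC4, that is for 6 of the 8 tested members. For SCX these differences were -4.03 and -4.10 on the log2 scale, for MKX -3.39 and -3.42, and for MEOX2 -1.79 and -1.90. For MKX donor 1 was close to donors 2 and 5, at -3.34, and for SCX donor 4 was at -3.67. NFATC4 was higher in all 5 donors, with the smallest rises, 0.03 and 0.08, in donors 2 and 5. The same 2 donors held the lowest differences for 43.3% of the 642 genes called lower and for 19.1% of all tested genes. The median difference of the genes called lower was -1.78 in donor 2 and -2.03 in donor 5, beside -1.54, -0.91 and -1.39 in donors 1, 3 and 4. EGR1 and EGR2 had their lowest difference in donor 1, at -0.39 and -2.03. Members of 1 library share its depth and its cells, so they are not replicates of each other.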
